A study of Mus musculus with 15 samples.

Results

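Vasopressin and oxytocin genes were examined in the dorsal forebrain of mouse fetuses at embryonic day 18 (E18), in dams infused throughout gestation with vasopressin (AVP) or saline. The set held 7 genes, chosen by name and not by their values, of 53337 genes in the deposited table: the ligand precursors Avp and Oxt, the receptors Avpr1a, Avpr1b, Avpr2 and Oxtr, and the peptidase Lnpep. All dams were C57BL/6J, and the infusion came from a subcutaneous osmotic minipump in the dam. The study does not state the strain of the sires. There were 4 male and 3 female fetuses from AVP dams and 4 of each sex from saline dams. The study states that a further AVP female was left out as an outlier for high variance. Values of that library were not available, so its effect on the female differences was not tested. The infused agent was a peptide, so the libraries measured the response of fetal transcripts and not the infused AVP itself. The series drew on 8 litters, with a separate litter for every library within a group per the study's legend, so brothers and sisters lay across the sexes. The labels do not tie a fetus to a litter, and every test that combined the sexes treated littermates as independent.

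AVP and oxytocin are short peptides that differ at only a pair of residues. Each is cut from a larger precursor that also carries a neurophysin, the carrier protein that holds the peptide in secretory granules, and both are made chiefly by hypothalamic neurons. The V1a receptor (Avpr1a), the V1b receptor (Avpr1b) and the oxytocin receptor (Oxtr) couple mainly to Gq and phospholipase C, whereas the V2 receptor (Avpr2), known for water retention in the kidney, couples to Gs and cyclic AMP. Leucyl-cystinyl aminopeptidase, encoded by Lnpep and also called oxytocinase, cleaves both peptides.

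Avp (chromosome 2, 130580620 to 130582554, minus strand, GRCm38) and Oxt (chromosome 2, 130576173 to 130577054, plus strand) lie 3565 bases apart and face each other tail to tail. Their mRNAs are near-copies in the neurophysin coding region. The longest identical stretch covered 127 bases, in capitals here with 30 bases on each side in lower case, and it ran from exon 1 into exon 2 of both genes (Avp chr2:130581133-130582411, minus strand, and Oxt chr2:130576328-130576715, plus strand, GRCm38, introns removed). These stretches are shown because short-read fragments that fall wholly inside the capitals cannot be assigned to either ligand. The study's paired reads were longer than this stretch before trimming, and the share of such fragments was not known.
Avp: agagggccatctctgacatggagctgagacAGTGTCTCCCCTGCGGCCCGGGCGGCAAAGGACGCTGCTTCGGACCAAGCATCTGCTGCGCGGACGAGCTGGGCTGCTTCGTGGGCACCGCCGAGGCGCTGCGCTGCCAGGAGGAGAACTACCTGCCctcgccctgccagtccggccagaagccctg
Oxt: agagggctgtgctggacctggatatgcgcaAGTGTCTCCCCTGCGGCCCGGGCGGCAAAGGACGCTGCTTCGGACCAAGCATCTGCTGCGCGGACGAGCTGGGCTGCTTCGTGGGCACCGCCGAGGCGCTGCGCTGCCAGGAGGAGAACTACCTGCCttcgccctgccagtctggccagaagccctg

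Of the 547 windows of 31 bases in the Avp transcript, 97 (17.7%) also occurred in Oxt, and 111 of the 507 windows in the Oxt transcript (21.9%) occurred in another gene. Avpr1a shared none of its 2640 windows with another gene. The 300-base promoter windows of RefSeq (GRCm38.p6, 250 bases before to 50 after the start) were matched for 6 of the 7 genes. The Lnpep window held 30 CG dinucleotides, a number reached by 11.7% of 32851 promoter windows, and the Oxtr window held 20 (26.5%). The Avpr1a, Avp and Oxt windows held 13, 8 and 6, beside a median of 7 over all promoters, and the Avpr2 window held 1, as 94.6% of promoters had at least that many. The quantified transcript Lnpep-201 begins upstream of the Lnpep window, at base 17625047, so this window lies within the span of that transcript. The windows of Lnpep (chr17:17624440-17624739, minus strand), the most abundant transcript of the set, and of Avpr2 (chrX:73891852-73892151, plus strand), listed at 0 throughout, are shown with each CG in capitals.
Lnpep: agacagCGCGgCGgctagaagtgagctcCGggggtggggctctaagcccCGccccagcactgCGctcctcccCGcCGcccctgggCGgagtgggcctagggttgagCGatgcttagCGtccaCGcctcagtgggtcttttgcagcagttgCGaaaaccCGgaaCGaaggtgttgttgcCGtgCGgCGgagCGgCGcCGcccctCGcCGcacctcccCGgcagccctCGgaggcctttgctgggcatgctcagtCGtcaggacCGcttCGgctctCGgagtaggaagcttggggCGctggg
Avpr2: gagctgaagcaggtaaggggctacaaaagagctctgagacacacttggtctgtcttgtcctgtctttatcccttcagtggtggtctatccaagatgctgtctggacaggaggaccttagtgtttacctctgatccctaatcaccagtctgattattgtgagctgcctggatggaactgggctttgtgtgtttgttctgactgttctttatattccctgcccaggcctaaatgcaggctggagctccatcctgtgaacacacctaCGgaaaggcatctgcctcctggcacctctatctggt

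Values were TPM, a transcript abundance that is scaled to transcript length and sums to the same total in each library, and each gene's value was the sum over its transcripts. TPM hold no read counts, so the depth of each library was unknown and no counting interval could be given. The study states mapped reads only as an average per sample. The libraries held 14845 to 15897 genes at 1 TPM or more. In bulk tissue, fewer cells of a type and less RNA per cell cannot be told apart. All 8 markers of dorsal forebrain identity were at 1 TPM or more in all 15 libraries, while 9 hypothalamic markers summed to only 1.74 to 4.41 TPM, of which Pomc made up the largest part (1.93 TPM on average, 1 TPM or more in all 15). Sim1, Kiss1 and Pmch were under 0.01 TPM in 13, 14 and 15 libraries, Agrp and Ghrh in 1 and 2. The sex label matched the level of Xist and of 4 Y-linked genes in 14 libraries. The exception was saline male 3 by its label, with Xist at 266 TPM, inside the range of females (174 to 294 TPM), and the Y-linked genes summed to 0.489 TPM, against 102 to 155 TPM in the other males. Male differences of the vasopressin and oxytocin genes and male list medians were therefore also given without it.

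The order of mean levels was Lnpep, Oxtr, Avpr1a, Oxt, Avp, Avpr1b and Avpr2. Lnpep averaged 5.39 ± 1.29 TPM (SD, n = 15), Oxtr 0.960 ± 0.368 TPM, Avpr1a 0.473 ± 0.197 TPM, Oxt 0.258 ± 0.350 TPM, Avp 0.0811 ± 0.127 TPM and Avpr1b 0.0273 ± 0.0820 TPM. Only the step from Lnpep to Oxtr was wider than the spread between libraries, since the lowest Lnpep value (3.47 TPM) was above the highest Oxtr value (1.82 TPM). Oxtr exceeded Avpr1a within each of the 15 libraries although their ranges overlapped, Avpr1a exceeded Oxt in 12, Oxt exceeded Avp in 8 and Avp exceeded Avpr1b in 6. Among genes with a mean of at least 1 TPM, Lnpep lay above 27.0%, and no other gene of the set reached that mean.

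**Figure D1:**
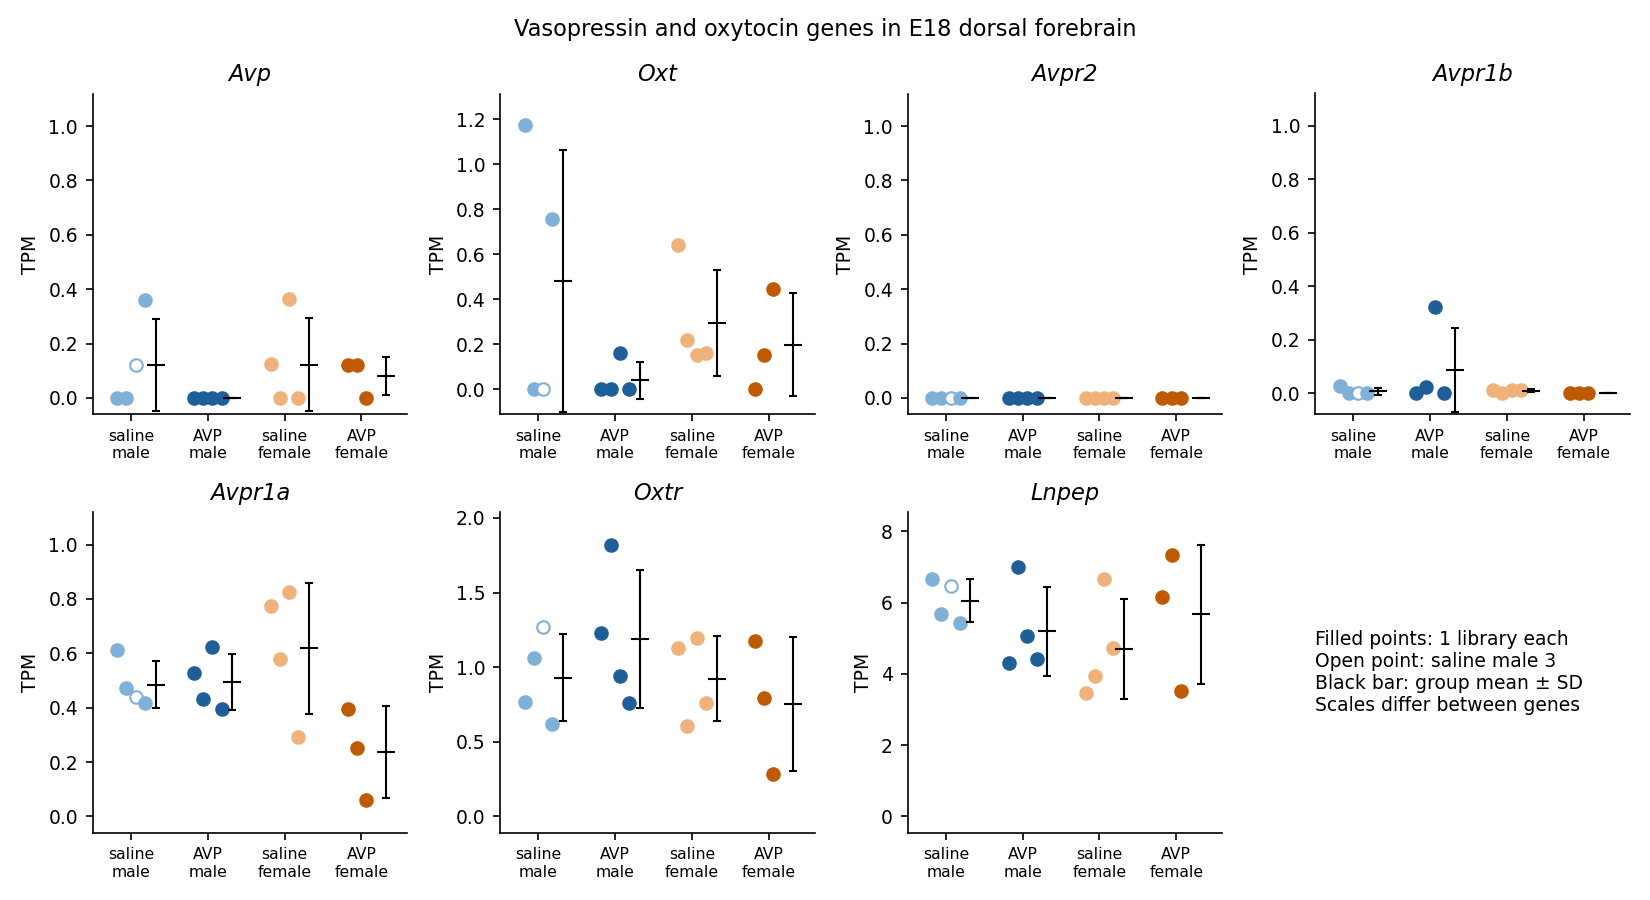
TPM of the 7 genes (vertical axes, scales differing between genes) in each library, by group, with group mean ± SD (n = 4, 4, 4 and 3 from left to right). The open point is the library labelled saline male 3. Lnpep lies between 3.47 and 7.33 TPM, Avpr2 is at 0 in all libraries, and AVP and saline points overlap for each gene within each sex.

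The ligands were near the limit of the table. Avp, the vasopressin precursor, was listed at 0 in all 4 AVP males and in 9 of 15 libraries. In saline males it was 0, 0, 0.122 and 0.361 TPM, in AVP females 0.121, 0.122 and 0 TPM, and in saline females 0.126, 0, 0.366 and 0 TPM. The saline males with a value and those without it were 2 each, so the male groups overlapped at 0, and the female groups overlapped throughout. On the log2(TPM + 0.5) scale, on which all differences are given as AVP minus saline and which understates changes of low genes, Avp differed by -0.27 in males (-0.26 without saline male 3) and by -0.07 in females. Neither was larger than the spread between libraries (exact two-sided permutation test, p = 0.429, adjusted p = 0.643 in males and p = 0.743, adjusted p = 0.743 in females, adjusted over the 6 genes with a value above 0). With 70 splits of the males and 35 of the females the smallest p possible was 0.0286. A single gene at that p would not pass after adjustment over the 6 genes.

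Oxt, the oxytocin precursor, was listed at 0, 0, 0.162 and 0 TPM in AVP males and at 1.17, 0, 0 and 0.757 TPM in saline males. It was 0, 0.153 and 0.447 TPM in AVP females and 0.644, 0.222, 0.153 and 0.164 TPM in saline females. All 4 saline females had a value, but only saline male 1 reached 1 TPM, and the groups overlapped in both sexes. The log2 difference was -0.67 in males (exact permutation p = 0.429, adjusted p = 0.643), -0.92 without saline male 3, and -0.19 in females (exact permutation p = 0.571, adjusted p = 0.720). With the sexes combined and splits drawn within each sex, an alternative added after the data were seen, Oxt differed by -0.45 (exact permutation p = 0.161, adjusted p = 0.482, 2450 splits), and by -0.56 without saline male 3 (exact permutation p = 0.0931, adjusted p = 0.279). Avp under the same test differed by -0.18 (exact permutation p = 0.241, adjusted p = 0.482). Avpr1a had the smallest p of the set in this test, with -0.27 (exact permutation p = 0.103, adjusted p = 0.482). Without saline male 3 its difference was -0.31 (exact permutation p = 0.0890, adjusted p = 0.279). Of the saline males, saline male 4 had both ligands, saline male 1 had Oxt alone and saline male 3 had Avp alone.

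Of the receptors, Avpr2 (chromosome X, 73892102 to 73895502, plus strand) was listed at 0 in every library for all 4 of its transcripts. Its exons overlap those of Arhgap4, a gene on the opposite strand, over 2347 bases, and 1724 of the 1782 windows of 31 bases in the transcript Avpr2-201 occurred, reverse-complemented, in Arhgap4-203. The library kit keeps strand and the authors ran Kallisto in a stranded mode, so these reads can be told apart by strand. Arhgap4-203 itself was at 0.121 ± 0.0521 TPM (SD, n = 15). No test was possible for Avpr2.

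Avpr1b (chromosome 1, 131599239 to 131612000, plus strand), known for corticotropin release in the pituitary, had a value in 6 libraries. It was 0, 0.0227, 0.322 and 0 TPM in AVP males, and of the saline males only saline male 1 had a value, 0.0265 TPM. All 3 AVP females were at 0, and the saline females lay between 0 and 0.0131 TPM. The male mean thus rested on AVP male 3, and the groups overlapped in both sexes (log2 difference 0.18, or 0.17 without saline male 3, exact permutation p = 0.714, adjusted p = 0.857 in males and -0.03, exact permutation p = 0.143, adjusted p = 0.429 in females).

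Avpr1a (chromosome 10, 122448499 to 122453452, plus strand), the main vasopressin receptor of brain and blood vessels, was the only vasopressin receptor with a value in every library. It was 0.527, 0.434, 0.625 and 0.394 TPM in AVP males and 0.613, 0.473, 0.438 and 0.417 TPM in saline males, so that the male groups covered nearly the same range. It was 0.396, 0.252 and 0.0599 TPM in AVP females and 0.775, 0.579, 0.826 and 0.292 TPM in saline females. Of the AVP females, 2 lay below all saline females, and AVP female 1 lay above saline female 4, so the female groups overlapped. The mean was 0.236 ± 0.169 TPM (SD, n = 3) in AVP females and 0.618 ± 0.242 TPM (n = 4) in saline females, against 0.495 ± 0.103 TPM in AVP males and 0.485 ± 0.0881 TPM in saline males (n = 4 each).

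The log2 difference of Avpr1a was -0.60 in females (exact permutation p = 0.0857, adjusted p = 0.429) and 0.01 in males (exact permutation p = 0.886, adjusted p = 0.886), or -0.0095 without saline male 3. Avpr1a did not reach the filter of the fits across all genes, 1 TPM in at least 50% of the libraries, so limma was also run without it. There the female difference had a standard error of 0.25, a 95% interval of -1.18 to -0.02 and an adjusted p of 0.952 over 30563 genes in limma. Of those genes, 4.06% had an unadjusted p under 0.05, Avpr1a among them, and 0.0% passed after adjustment. The treatment difference in females minus that in males was -0.61 (standard error 0.27, 95% interval -1.19 to -0.03, limma adjusted p = 0.872), with an unadjusted p under 0.05, as for 4.10% of all genes. Its interval covered 0 without saline male 3 (-0.59, 95% interval -1.22 to 0.04), with that library fitted as a female (-0.55, -1.15 to 0.05) and without AVP female 3 (-0.43, -1.004 to 0.14). No difference in Avpr1a passed the adjusted test.

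The female value leaned on AVP female 3, the lowest of all libraries for both Avpr1a and Oxtr. Without it the Avpr1a difference was -0.42 (95% interval -1.06 to 0.22, limma adjusted p = 0.969). AVP female 3 also had the lowest median deviation of genes with transcripts of 5000 bases or more, -0.30 on the log2 scale, against -0.21 to 0.26 in the other libraries. Its median for genes under 2000 bases was -0.05, within the range of the others (-0.10 to 0.09). Avpr1a-201 (2670 bases) and the Oxtr transcripts (4704 and 3721 bases) belong to neither class. AVP male 1, next lowest for the long class at -0.21, had 0.527 TPM of Avpr1a and 1.23 TPM of Oxtr. AVP female 3 also had the highest red blood cell and lowest interneuron marker sums of all libraries, 13657 and 470 TPM. What part these had was not tested. The library numbers form 2 runs, and the female difference was -0.39 in the run S1 to S8 (1 AVP and 2 saline females) and -0.66 in S13 to S20 (2 and 2). Of 11 lists of cell type markers, 3 did not overlap between AVP and saline females. Of single genes tested in females, 2.78% lay wholly higher with AVP and 2.77% wholly lower, but a list sum is not a single gene. Choroid plexus markers overlapped, at 20.7 to 2259 TPM with AVP and 4.96 to 947 TPM with saline. Meningeal fibroblast markers summed to 123 to 165 TPM in AVP females against 74.7 to 89.5 TPM in saline females, mural cell markers to 85.9 to 92.0 against 57.4 to 76.4 TPM, and endothelial markers to 155 to 160 against 86.4 to 140.1 TPM. The 3 lists without overlap were thus higher in the female group with the lower mean of Avpr1a. Among females, AVP female 3 had the least Avpr1a (0.0599 TPM) and the highest meningeal fibroblast (165 TPM) and endothelial (160 TPM) sums. Saline female 4, with the least Avpr1a of the saline females (0.292 TPM), had the lowest sums of all 3 lists among females. The part of the lists in the result was not tested. In males 0 of the 11 lists separated the groups.

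**Figure D2:**
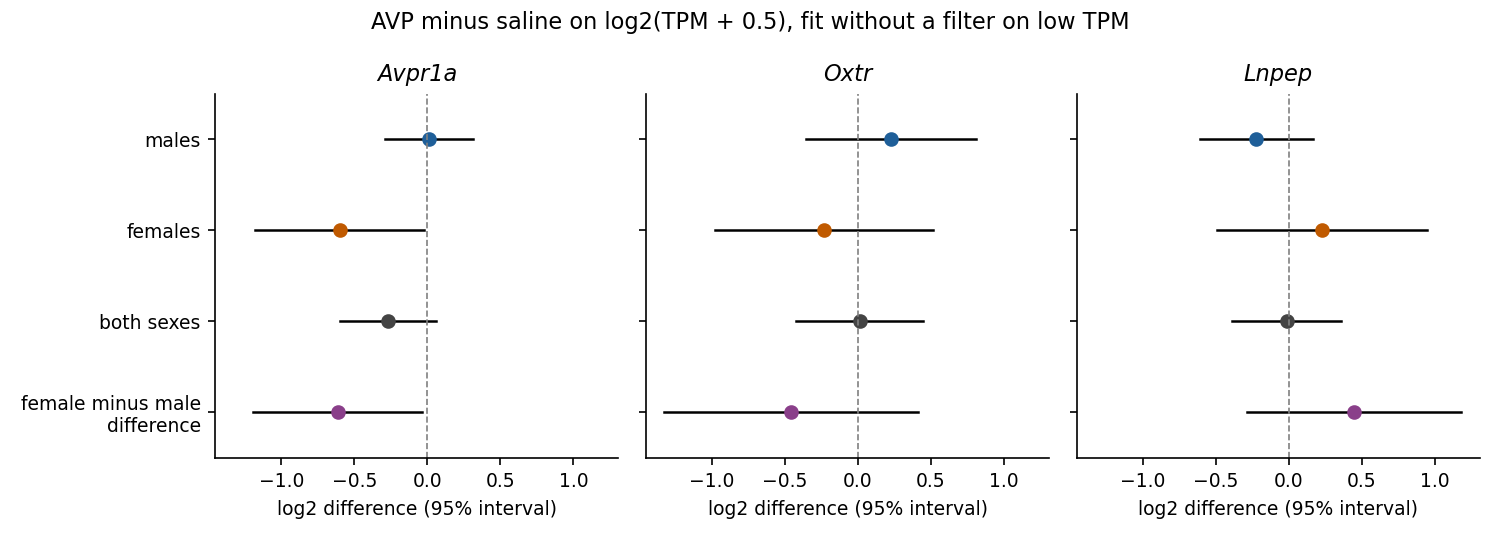
AVP minus saline log2 difference (horizontal axis, log2(TPM + 0.5)) of Avpr1a, Oxtr and Lnpep in males, females and both sexes with sex as a term, and the female minus male difference, from limma without a filter on low TPM. Points are estimates and lines 95% intervals. Only the 2 Avpr1a intervals that involve females alone or the sexes against each other leave out 0, and neither passes after adjustment over all genes.

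Oxtr (chromosome 6, 112473683 to 112489943, minus strand), the oxytocin receptor, which AVP can also bind, was 1.23, 1.82, 0.942 and 0.760 TPM in AVP males and 0.767, 1.06, 1.27 and 0.616 TPM in saline males. It was 1.18, 0.793 and 0.282 TPM in AVP females and 1.13, 0.609, 1.19 and 0.758 TPM in saline females. AVP male 2 was the highest library and AVP female 3 the lowest, and the groups overlapped in both sexes. The log2 difference was 0.22 in males (limma, standard error 0.25, 95% interval -0.35 to 0.80, adjusted p = 0.717). In females, where Oxtr missed the filter, it was -0.23 (limma without the filter, standard error 0.32, 95% interval -0.98 to 0.51, adjusted p = 0.955) and turned to 0.07 without AVP female 3. Without saline male 3 the male value was 0.33 (limma without the filter, adjusted p = 0.822). The female minus male difference was -0.46 (95% interval -1.33 to 0.41, limma adjusted p = 0.872).

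Oxtr was the sum of a pair of transcripts. Oxtr-201 (4704 bases) holds the full coding sequence of 1164 bases, and Oxtr-202 (3721 bases) lacks the first coding exon and holds 225 coding bases. The transcripts share most of their length. Of the 31-base windows of Oxtr-202, 97.7% also occurred in Oxtr-201, and 77.2% of those of Oxtr-201 occurred in Oxtr-202. The split between them rested on what they do not share, a short part of Oxtr-202 and a longer part of Oxtr-201. Oxtr-202 took from 22.2% of Oxtr TPM in AVP female 2 to 90.0% in saline female 2. In males its share was 57.0%, 56.7%, 70.6% and 81.2% with AVP and 32.8%, 26.8%, 69.3% and 44.6% with saline, so the groups overlapped through the library labelled saline male 3. In females the shares were 70.9%, 22.2% and 85.2% with AVP and 49.2%, 90.0%, 75.1% and 50.7% with saline, and overlapped throughout.

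**Figure D3:**
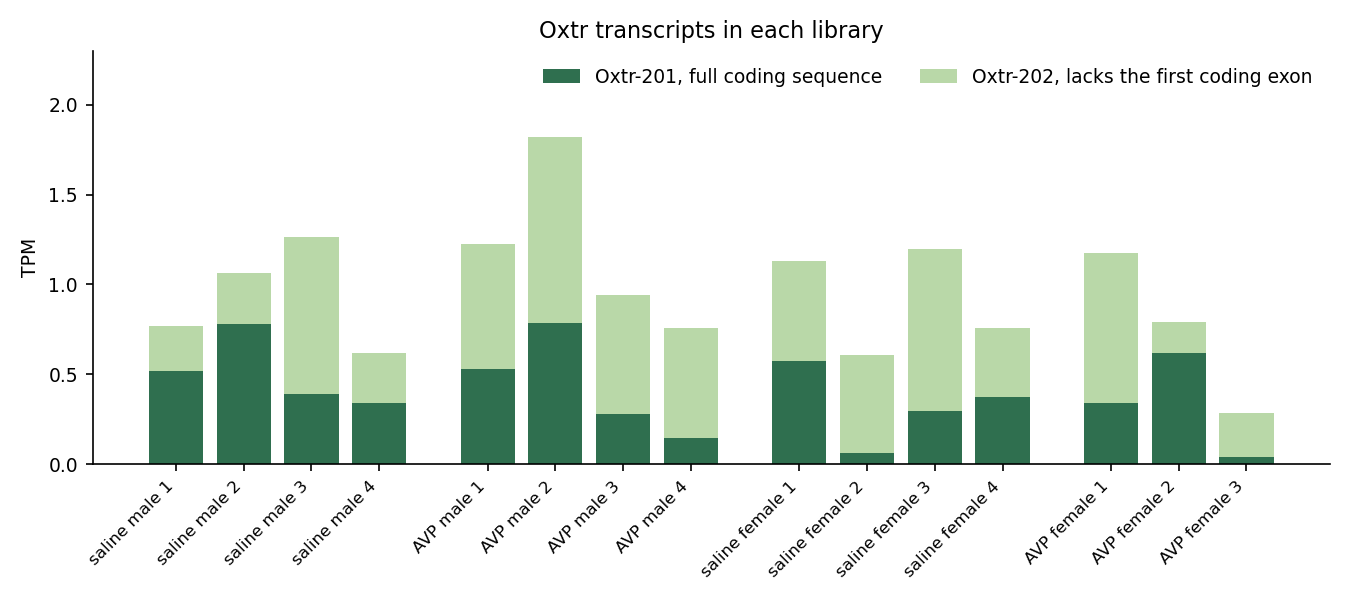
TPM of the 2 Oxtr transcripts (vertical axis, stacked bars) in each of the 15 libraries, by group. The full-length transcript Oxtr-201 is the smaller part in 10 of 15 libraries, and its share ranges widely within each group.

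Lnpep (chromosome 17, 17521410 to 17625050, minus strand), the peptidase, was 4.31, 7.004, 5.07 and 4.42 TPM in AVP males and 6.66, 5.69, 6.46 and 5.42 TPM in saline males. It was 6.17, 7.33 and 3.52 TPM in AVP females and 3.47, 3.94, 6.65 and 4.73 TPM in saline females. In males 3 of the 4 AVP libraries lay below all saline libraries and AVP male 2 lay above them, and in females the highest and the second-lowest library both had AVP. The transcript is 12052 bases long, 8342 of them 3′ UTR. Lnpep was the only gene of the set that was tested in every fit across genes.

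In males Lnpep differed by -0.22 (limma, standard error 0.16, 95% interval -0.59 to 0.15, adjusted p = 0.555), by -0.19 without saline male 3 (limma adjusted p = 0.775), and in females by 0.23 (limma, standard error 0.29, 95% interval -0.43 to 0.89, adjusted p = 0.999). The median difference over all 15271 genes tested in males was -0.10, and median-of-ratios scaling, which moved that median to 0.0032, gave Lnpep -0.12 (limma adjusted p = 0.805). Over both sexes the Lnpep difference was -0.01 (95% interval -0.38 to 0.35, limma adjusted p = 0.980). The female minus male difference was 0.45 (standard error 0.33, 95% interval -0.26 to 1.16, limma adjusted p = 0.896). Without AVP female 3 it was 0.73 (95% interval 0.09 to 1.38, limma adjusted p = 0.610), and the female difference was 0.51 (limma adjusted p = 1.0). Within the runs of library numbers the female difference was 0.67 in S1 to S8 and -0.13 in S13 to S20, and the male difference -0.15 and -0.29. Females and males did not differ beyond the spread in Lnpep (females minus males -0.16, 95% interval -0.52 to 0.20), and without the filter the same contrast was -0.22 for Oxtr (95% interval -0.65 to 0.22) and -0.13 for Avpr1a (95% interval -0.45 to 0.20). Without saline male 3 these values were -0.13 for Lnpep, -0.18 for Oxtr and -0.16 for Avpr1a, and each 95% interval covered 0.

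Across the 15 libraries, the genes whose log2 values followed Lnpep most closely were Pafah1b2, a subunit of platelet-activating factor acetylhydrolase (Pearson r = 0.95), Med1, a Mediator subunit (r = 0.94), and Zfp871, a zinc finger gene (r = 0.92). All 3 have a longest transcript of 6873 bases or more. Of the 15586 genes with a mean of at least 1 TPM, 3196 have one of 5000 bases or more. A part of transcript length in the correlation was not tested. The correlation is a description, and the values in a point come from 1 library.

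In the fits across genes, 0 of the genes of the set passed an adjusted p of 0.05, beside 0.00655% of 15271 genes in males, 0.0% of 15132 in females and 0.0% of 15078 over both sexes, for the female minus male difference and for females against males. Before adjustment 2057 genes had p under 0.05 in males (13.5%), 683 in females (4.51%), 1564 over both sexes (10.4%), 624 for the female minus male difference (4.14%) and 210 for females against males (1.39%). Lnpep was not among them in any of these fits. Oxtr passed the filter only in the male fit and was not among the genes there. Without the filter none of the 6 genes with a value passed the adjusted test either, beside 0.00321% of 31145 genes in males and 0.0% in the other comparisons. The fit of females against males counted saline male 3 as a male. Without that library and with the filter, 7 of 15164 genes passed in it, none of the set.

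Genes around the receptors were taken from 5 lists of 56 genes in all, and none passed the adjusted test in either sex. In males 49 were tested, 12 lay above 0 and 37 below, with a median of -0.11 beside -0.10 over all genes. In females 51 were tested, 10 above 0 and 41 below, with a median of -0.16 beside -0.05. Unadjusted p under 0.05 was found for 10 of 49 in males, all lower with AVP, and for 8 of 51 in females, 7 of them lower, beside the 13.5% and 4.51% over all genes.

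The 6 receptor kinases and arrestins, which silence and internalise active receptors, had the lowest list median in males, -0.23. Of this list, 4 of 6 in males and 1 of 6 in females had an unadjusted p under 0.05, beside 13.5% and 4.51% of all genes. Grk2, the kinase best known for arrestin recruitment, averaged 72.1 ± 5.49 TPM in AVP males and 84.5 ± 6.19 TPM in saline males (SD, n = 4 each), a log2 difference of -0.23 (limma adjusted p = 0.311), and 72.8 ± 13.3 against 89.6 ± 5.71 TPM in females (n = 3 and 4), a difference of -0.31 (limma adjusted p = 0.999). Arrb2, an arrestin, differed by -0.23 and -0.13 in males and females (limma adjusted p = 0.611 and 0.999). The list median was -0.24 in males without saline male 3 and -0.12 with median-of-ratios scaling, and in females it was -0.14, or -0.07 without AVP female 3.

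The 16 Gq and phospholipase C genes had medians of -0.10 in males (12 tested), or -0.05 without saline male 3, and -0.16 in females (13 tested). Gnaq, the Gq alpha subunit, was the most abundant at 80.6 TPM and differed by -0.04 in males and -0.10 in females, and Prkcb, a protein kinase C, by -0.0026 and -0.55 (limma adjusted p = 0.994 and 0.999). The 17 Gs and cyclic AMP genes had medians of -0.09 in males, or -0.07 without saline male 3, and -0.20 in females, and all 16 tested in females lay below 0. Gnas, the Gs alpha subunit, was the most abundant of all listed genes at 979 TPM and differed by -0.02 in males and -0.11 in females, and Prkar1a, a protein kinase A regulatory subunit, by 0.01 and -0.02. Without AVP female 3 the female medians were 0.0072 for the Gq list and -0.02 for the Gs list, and in males the Gs median turned to 0.02 with median-of-ratios scaling.

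The 7 genes that process peptide precursors, which the ligands need before release, all passed the filter and had medians of -0.02 in males, which turned to 0.10 with median-of-ratios scaling and to 0.0049 without saline male 3, and -0.20 in females. Cpe, carboxypeptidase E, was at 345 TPM and differed by 0.12 in males and -0.36 in females (limma adjusted p = 0.543 and 0.999), and Scg5, the PC2 chaperone, at 133 TPM, by 0.09 and -0.09. Of the 10 other aminopeptidases of the M1 family, to which Lnpep belongs, 6 were more abundant than Lnpep. Npepps, the puromycin-sensitive aminopeptidase, was at 119 TPM and Lta4h, leukotriene A4 hydrolase, at 68.2 TPM, against 5.39 TPM for Lnpep, and they differed by -0.12 and -0.07 in males and by 0.01 and -0.10 in females. The median of the tested M1 genes was -0.12 in males, or -0.07 without saline male 3, and -0.07 in females, and the female median turned to 0.08 without AVP female 3 and to 0.01 without AVP female 1.

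AVP and saline libraries did not overlap for 4 of 49 listed genes in males, all lower with AVP (8.16%, beside 6.54% of all genes tested that lay lower and 0.733% that lay higher), namely Adcy3, Arrb1, Gna11 and Prkca. Without saline male 3 they were 5, with Grk2 added (10.2%, beside 7.51% lower and 1.47% higher). In females Enpep, a membrane aminopeptidase that cleaves angiotensin II, was the single listed gene without overlap, at 2.23 to 3.48 TPM with AVP and 1.33 to 1.73 TPM with saline (1.96%, beside 2.78% of all genes higher and 2.77% lower with AVP), in the same libraries in which endothelial and mural markers were higher, and their part in that was not tested.

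**Figure D4:**
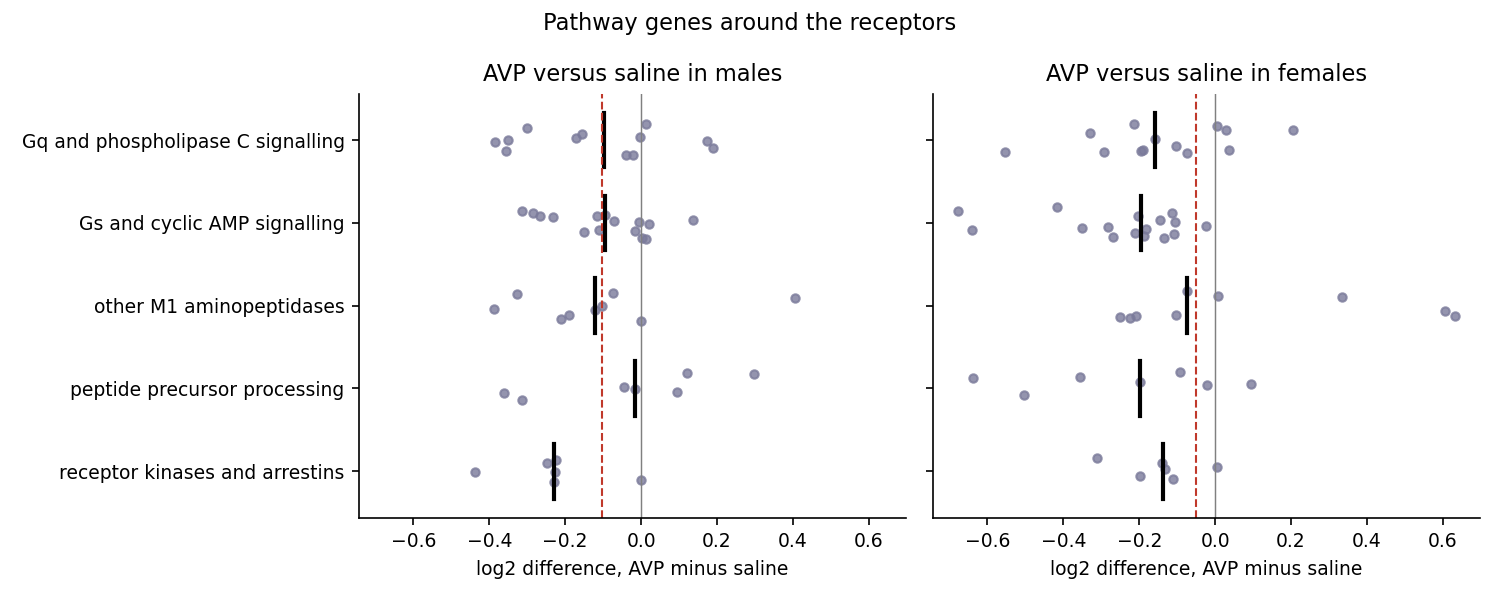
AVP minus saline log2 difference (horizontal axis, log2(TPM + 0.5)) of each tested gene of the 5 lists in males and females. Black bars are list medians, the dashed line is the median of all genes tested in that sex (-0.10 in males, -0.05 in females) and no gene shown passed the adjusted test.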

How the data were processed

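Dorsal forebrain was dissected from E18 fetuses and mRNA-seq libraries were made with a strand-keeping kit and sequenced in paired-end reads. Per the labels and the study's methods, the authors trimmed reads with Trim Galore 0.4.1, checked them with FastQC 0.5.2, quantified GENCODE M16 transcripts (GRCm38) with Kallisto 0.43.1 with bias correction and tested them with Sleuth 0.29.0. The unit of the deposited transcript values is not named, but every library has the same total, as TPM have, so the authors' values were read as TPM. Sleuth could not be run on TPM alone.

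Transcript TPM were summed to genes with GENCODE M21, in which 404 of 133849 transcripts were unmatched (0.154 to 0.199% of TPM). Log2(TPM + 0.5) was fitted with limma 3.58.1 (R 4.3.3) with a trend, for each sex alone and for both with sex and its interaction, keeping genes at 1 TPM or more in at least 50% of libraries, with Benjamini-Hochberg adjustment over all genes and a threshold of 0.05. Single genes had exact two-sided permutation tests of the difference of means, adjusted over the 6 genes with a value above 0. The fit and the permutation test were tested on simulated data. Alternatives were pseudocounts of 0.1 and 1, no filter, median-of-ratios scaling, the run of library numbers as a term and each library left out. Genes of the set were chosen by name, and the lists, members and rules were chosen with earlier results of these data known. Named genes were the 7 of the set, the 2 most abundant of each list and any past the threshold, and the genes closest to Lnpep. Genes named for groups that did not overlap were chosen after their values were seen.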

Additional observations from a re-analysis of the deposited data

Results flagged for a closer look

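In groups of 4 libraries, a library was singled out where its gap to the nearest other library exceeded Dixon's 95% critical value for the group's range. Of 23 gene and group combinations examined, 7 met this. Chance flags about 1 in 20 groups of continuous values, a rate that does not apply where 3 of the 4 libraries are at 0 and any value above 0 is flagged. Oxt in AVP male 3 (0.162 TPM) was the only value above 0 of its group, and Oxt in saline female 1 (0.644 TPM) lay far above the other saline females. Avpr1b stood out in AVP male 3 (0.322 TPM), in saline male 1 (0.0265 TPM), the only value above 0 of its group, and in saline female 2, listed at 0.0 TPM while the other 3 had a value. Xist (266 TPM) and the sum of 4 Y-linked genes (0.489 TPM) in saline male 3 stood apart from the other saline males.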

How the results depend on the processing

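The number of genes of the set past the threshold was 0 in every fit and permutation test and under every alternative run. The number of listed pathway genes past it was also 0 in the fits. For the permutation tests within each sex this 0 was nearly fixed in advance, so it says little on processing. The smallest p possible there was 0.0286, and a single gene at that p would not pass after adjustment over the 6 genes. Leaving out 1 library cannot lower that p. Over all genes, the count in males was 1 and became 0 with a pseudocount of 1 and 0 with the run of library numbers as a term, and lay between 0 and 6 with 1 library left out. It lay between 0 and 6 in females, 0 and 1 over both sexes, 0 and 1 for the female minus male difference and 0 and 7 for females against males with 1 library left out, and was 2 for females against males with saline male 3 fitted as a female, an alternative added after the data were seen. These counts are for fits with the filter. Without it and with 1 library left out, up to 9 genes passed in males (without saline male 1), 16 in females and 13 for the female minus male difference (both without AVP female 3), none of them in the set.

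Some small differences changed sign without passing a test, and the cause was not tested. Over both sexes, Lnpep was 0.0543 with median-of-ratios scaling and -0.120 to 0.0723 with 1 library left out, and Oxtr without the filter was -0.0164 with a pseudocount of 0.1 and -0.0872 to 0.163 with 1 library left out. With 1 library left out, Avpr1a in males lay between -0.0481 and 0.0726, and in females Oxtr between -0.479 and 0.0716, Avp between -0.163 and 0.101 and Oxt between -0.436 and 0.0239. Avpr1a in females kept its sign, from -1.17 with a pseudocount of 0.1 to -0.38 with a pseudocount of 1.

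No paired analysis was possible because replicate numbers follow the order of deposition and fetuses are not tied to litters. Unknown depth of each library and values under 1 TPM limit what the ligands, Avpr1a and Avpr1b can show.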
